A study of Pimephales promelas with 27 samples.

Results

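The comparison described here is the late change in culture of untreated ovary explants of the fathead minnow (Pimephales promelas): 4 control arrays after 12 h of culture against 5 control arrays after 9 h. These 9 arrays were chosen by their labels, out of 27 arrays in the series. The series held female ovary explants cultured for 6, 9 or 12 h, either as controls (4, 5 and 4 arrays) or exposed to 1e-06 M of the androgen dihydrotestosterone, DHT (5, 5 and 4 arrays). The control explants received no DHT, and what else their medium held is not given in the sources used here. The strain and age of the fish are not given either. Nor do the labels say whether explants cultured alike were taken from different fish, so the p-values describe the spread between samples, which may be technical.

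An ovary explant is a piece of ovary that holds follicles at several stages, each an oocyte enclosed by granulosa cells and an outer layer of theca cells, with stroma, vessels and blood cells between them. Theca and granulosa cells together make the ovary's steroid hormones. In culture the tissue is cut off from the circulation and from the pituitary gonadotropins that drive it, and transcript levels can change with time in the dish. Untreated explants sampled at several times give the background against which the response to a hormone is read.

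RNA was hybridised to Agilent 1-colour arrays, 1 sample per array. The level of a probe is the log2 of its processed signal minus the log2 75th percentile of the same array, so that 0 stands for the array's 75th percentile and a difference of 1 for a 2-fold change. The files do not pair the 15208 probes with genes, and 0 of their names matched the reference table, so probes are given by their IDs, gene groups could not be described and the tissue could not be checked against its marker genes. The replicate numbers used below follow the order of the samples in the series. They are not given by the labels, and an equal number in both arms marks no pair. All 9 h controls lay on slides 1 to 4 and were scanned on the first of 3 days. The 12 h controls lay on slides of their own, replicate 1 on slide 5 (scanned on day 2), replicate 2 on slide 6 and replicates 3 and 4 on slide 7 (scanned on day 3). No slide and no scan day held both times, so in every value below slide and scan day cannot be told apart from time in culture. The 75th percentile of the signal was 3651 to 5709 in the 9 h controls and 1096 to 3418 in the 12 h controls, the lowest being replicate 1. Between 74.3% and 89.9% of probes were well above background at 9 h, and between 81.4% and 86.6% at 12 h. Replicates correlated across probes at r of 0.94 to 0.97 at 9 h and 0.94 to 0.96 at 12 h.

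Between 9 and 12 h, 2010 of 13714 tested probes (14.7%) changed at a limma adjusted p under 0.05, and most of them were higher at 12 h. There were 1606 higher probes (11.7%) and 404 lower ones (2.95%). The median rise was 2.44-fold and the median fall 2.01-fold. In a bulk sample, a change in the number of cells of a type cannot be told apart from a change of RNA per cell. Of the higher probes, 1108 were over 2-fold, 297 over 4-fold and 39 over 8-fold. Of the lower probes, 205 were over 2-fold, 55 over 4-fold and 13 over 8-fold. The 4 arrays of 12 h lay entirely above or below the 5 of 9 h for 1234 of the higher calls (76.8%) and 217 of the lower calls (53.7%), where 13.3% of all tested probes had ranges that did not overlap (10.8% higher and 2.57% lower). Called probes were well above background on all 9 arrays in 1217 of the higher (75.8%) and 333 of the lower cases (82.4%). The same held for 10523 of the 13714 tested probes.

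Over all calls, the preponderance of rises depended on the scaling in size but not in direction. With arrays scaled to the 75th percentile, the 12 h level exceeded the 9 h level by 0.11 at the median over tested probes, and this shift was between -0.03 and -0.01 after the scalings that follow. Quantile normalization gave 1199 higher and 692 lower, and normexp background correction with quantile normalization 1170 and 713. Cyclic loess gave 1162 and 708, the deposited values 1175 and 629, and centring on the median of bright probes 1311 and 651. When only the 9 compared arrays entered the fit, which leaves fewer degrees of freedom for the spread, 1255 probes were called, 1124 of them higher.

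**Figure D1:**
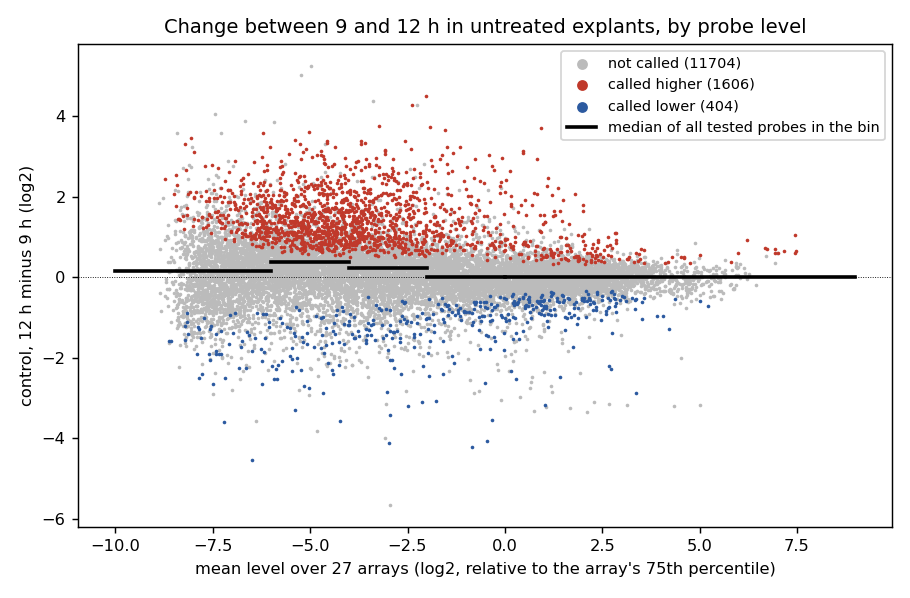
Log2 change from 9 to 12 h in control explants (vertical axis) against the mean level of each of 13714 probes over 27 arrays (horizontal axis, log2 relative to the array's 75th percentile). Red points are the 1606 higher and blue points the 404 lower calls, and black bars mark the median change within each range of levels, highest at 0.36 between -6 and -4.

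Rises were most frequent among probes of low to middling signal. Of the probes with a mean level between -6 and -4, 20.7% were called higher, and of those between -4 and -2, 17.1%. The shares were 9.19% below -6, 7.64% between -2 and 0 and 5.07% above 0. Falls ran the other way along this scale, from 1.91% below -6 to 4.20% above 0. Above 0 the balance of calls turned with the scaling, with 185 higher and 153 lower here but 105 higher and 297 lower after centring on the median of bright probes. The median change, calls aside, moved with the level as well. It was 0.16 below -6, 0.36 between -6 and -4, 0.21 between -4 and -2, 0.01 between -2 and 0 and 0.00 above 0. In the range from -6 to -4, the median of each 12 h array relative to the 9 h mean was 0.66, 0.14, 0.45 and 0.29 for replicates 1 to 4. The 5 arrays of 9 h, which are set against their own mean, lay between -0.09 and 0.10 there. In this range each 12 h array was thus above every 9 h array, by most on slide 5, the slide with the lowest signal. This did not hold in every range. Below -6, replicates 2 and 4 of 12 h, at -0.16 and 0.06, lay within the 9 h arrays, which went from -0.23 to 0.21. Under quantile normalization the medians of the 5 ranges lay between -0.05 and 0.01, and 353 of the probes from -6 to -4 were still called higher, against 572.

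Spike-in control spots, which read RNAs added to a sample, were put on the same scale. The amounts added to each sample are not given in the sources used here. Of 10 spike-ins with 20 spots each, 6 were well above background on all 9 arrays. Their mean level was 0.13, -1.04, 1.41, -0.49 and 2.05 in the 9 h replicates and 0.66, 0.47, 1.31 and 0.51 in the 12 h replicates. The 12 h arrays thus all lay within the range of the 9 h arrays. The means were 0.41 ± 1.29 (SD, n = 5) and 0.74 ± 0.39 (SD, n = 4), a difference of 0.33 that did not pass (exact permutation test, two-sided p = 0.635). With an SD of 1.29 at 9 h, this test could not tell a shift of that size from none. The distance between the brightest and the dimmest of the 6 was 8.64 ± 0.27 at 9 h and 8.42 ± 0.16 at 12 h, a difference of -0.22 (exact permutation test, two-sided p = 0.175, where 0.0159 is the smallest p these numbers of arrays allow). This distance rests on 2 of the 6 spike-ins. From the brightest to the dimmest, the mean changes from 9 to 12 h were 0.09, 0.40, 0.33, 0.19, 0.65 and 0.31. The brightest thus rose least, and whether the spike-ins shifted with their level was not tested beyond that distance. The part of signal strength in the excess of rises among dimmer probes was not tested.

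UF_Ppr_AF_107870 had the largest rise among called probes well above background on all 9 arrays. Its levels were -3.86, -3.83, -3.23, -4.36 and -2.95 at 9 h and 1.40, 0.44, 0.61 and 0.91 at 12 h. Every 12 h array was far above every 9 h array, and the 6 h controls, at -2.99, -2.94, -2.77 and -3.13, lay at the upper end of those of 9 h. The mean rise was 4.49 (SE 0.31), which is 22.4-fold (limma adjusted p = 5.40e-10). UF_Ppr_AF_113084 stood at -2.93, -4.69, -3.95, -5.31 and -3.32 at 9 h and at 1.58, -1.37, 0.94 and -0.19 at 12 h. Its ranges did not overlap either, although the 12 h arrays were spread widely, and it rose by 4.28 (SE 0.57, limma adjusted p = 7.55e-06).

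UF_Ppr_AF_117534, UF_Ppr_AF_103365 and UF_Ppr_AF_104556 rose with little spread at either time. The levels of UF_Ppr_AF_117534 were -3.04, -3.10, -2.97, -3.59 and -2.56 at 9 h and 0.68, 0.26, 0.41 and 1.04 at 12 h, a rise of 3.65 (SE 0.25, limma adjusted p = 5.40e-10). For UF_Ppr_AF_103365 they were between -4.29 and -3.32, then -0.44, -0.60, -0.43 and -0.26, a rise of 3.37 (SE 0.26, limma adjusted p = 2.24e-09). In each of these probes the gap between the 2 times was wider than the whole range within either. UF_Ppr_AF_104556 went from between -5.40 and -4.44 to between -1.94 and -1.30, and UF_Ppr_AF_105950 from between -6.46 and -4.97 to between -2.98 and -2.02.

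The other 2 of the 8 largest rises were uneven between explants. UF_Ppr_AF_102146 was at -4.23, -4.47, -3.99, -5.47 and -0.79 at 9 h and at 0.94, -0.46, -0.22 and -0.53 at 12 h. Replicate 5 of 9 h was close to the 12 h arrays, and the rise was 3.73 (SE 0.90, limma adjusted p = 0.00544). In UF_Ppr_AF_103802, at -2.27, -3.15, 0.09, -3.30 and 2.52 at 9 h and 2.76, 1.73, 2.70 and 2.74 at 12 h, the same replicate 5 lay among the 12 h arrays. The ranges overlapped, and the rise of 3.70 (SE 1.01, limma adjusted p = 0.0136) lost its call in a fit to the compared arrays alone and without slide 5, with an adjusted p of up to 0.0729.

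**Figure D2:**
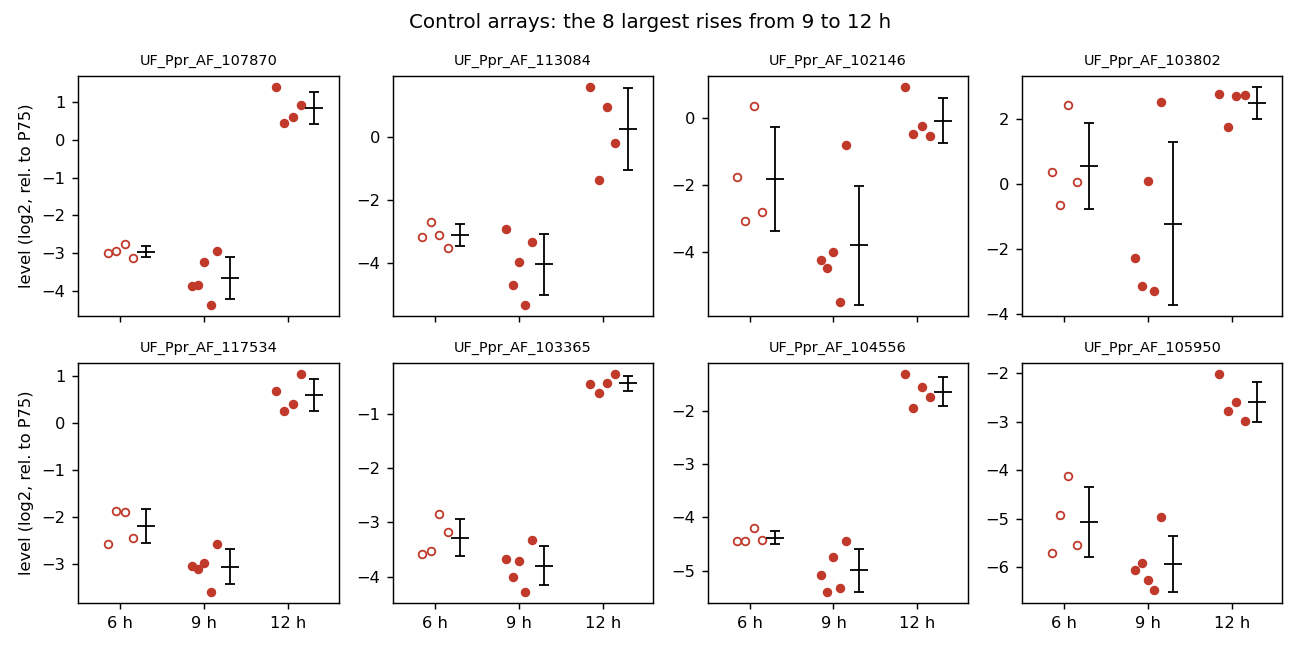
Levels (vertical axis, log2 relative to the array's 75th percentile) of the 8 largest rises, with open points for control arrays at 6 h and filled points at 9 and 12 h, and bars for the mean ± SD of each group. In 7 of the 8 panels no 9 h array reaches the 12 h arrays, and in UF_Ppr_AF_103802 one 9 h array, at 2.52, lies among them.

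The rises with the smallest p were smaller but very even. UF_Ppr_AF_117035 stood at -4.69, -4.89, -4.79, -4.82 and -4.70 at 9 h and at -2.30, -2.22, -2.12 and -2.22 at 12 h. Its SD was 0.08 and 0.07 at the 2 times, and the rise was 2.56 (SE 0.17), or 5.91-fold. UF_Ppr_AF_115769 was at -2.36, -2.50, -2.40, -2.38 and -2.32, then at 0.22, -0.17, 0.17 and 0.56, a rise of 2.59 (SE 0.17). UF_Ppr_AF_105162 went from -1.90, -1.28, -1.78, -1.56 and -1.66 to 1.03, 0.58, 0.57 and 0.81, a rise of 2.38 (SE 0.15). These 3 probes and UF_Ppr_AF_104556 each had a limma adjusted p of 5.40e-10.

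The largest falls had more spread between replicates than the largest rises. UF_Ppr_AF_116905 was at 0.73, 0.01, 0.51, -1.71 and 1.27 at 9 h and at -5.79, -5.25, -1.88 and -3.35 at 12 h. The ranges came close, at replicate 4 of 9 h and replicate 3 of 12 h, without overlapping, and the fall was 18.7-fold, a change of -4.23 (SE 0.91, limma adjusted p = 0.00195). UF_Ppr_AF_117886 stood at -1.17, 1.43, 0.38, 0.69 and 0.87 at 9 h and at -5.14, -5.65, 0.89 and -4.65 at 12 h. Replicate 3 of 12 h had not fallen at all, and the change of -4.08 (SE 1.28, limma adjusted p = 0.0335) lost its call in 11 of 26 alternative fits, among them those without replicate 1, 2 or 4 of 12 h.

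In UF_Ppr_AF_116905, control 9 h replicate 5 was the highest of the 9 h arrays. Another 4 of the 8 shared a profile in which that replicate was the highest of all control arrays. UF_Ppr_AF_118999 was at -1.60, -2.96, -2.31, -1.42 and 0.05 at 9 h and at -4.47, -3.38, -5.62 and -6.81 at 12 h, a change of -3.42 (SE 0.90, limma adjusted p = 0.0109). UF_Ppr_AF_107458 was at -2.16, -2.07, -2.20, -1.13 and 1.24, then between -6.00 and -3.15, a change of -3.21 (SE 0.86, limma adjusted p = 0.0120). UF_Ppr_AF_115057 changed by -3.11 and UF_Ppr_AF_107674 by -3.09, with replicate 5 at 1.51 and 1.83. In all 4 the ranges did not overlap. The 9 h mean of each was above its 6 h mean, by 1.15 to 1.67, although none of these earlier differences passed. The fall of UF_Ppr_AF_107674 was not called without 9 h replicate 5 or without 12 h replicate 3. That of UF_Ppr_AF_107458 was lost without 12 h replicate 3 and that of UF_Ppr_AF_118999 without 12 h replicate 4.

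In UF_Ppr_AF_112074 the explants differed at 9 h and were alike at 12 h. Its levels were 2.61, 3.84, 0.40, 4.63 and 0.04, then -1.01, -0.92, -0.97 and -0.61. The SD went from 2.04 to 0.18, and the change was -3.18 (SE 0.82, limma adjusted p = 0.00929), not called in a fit to the compared arrays alone. UF_Ppr_AF_111023, with a strong signal, went from 3.43, 3.25, 4.91, 5.67 and 5.40 to 2.40, 1.94, 0.67 and 1.61, a change of -2.88 (SE 0.96). Its limma adjusted p of 0.0456 was close to the threshold, and the call was lost in 13 of 26 alternative fits, among them each one without a 12 h array.

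**Figure D3:**
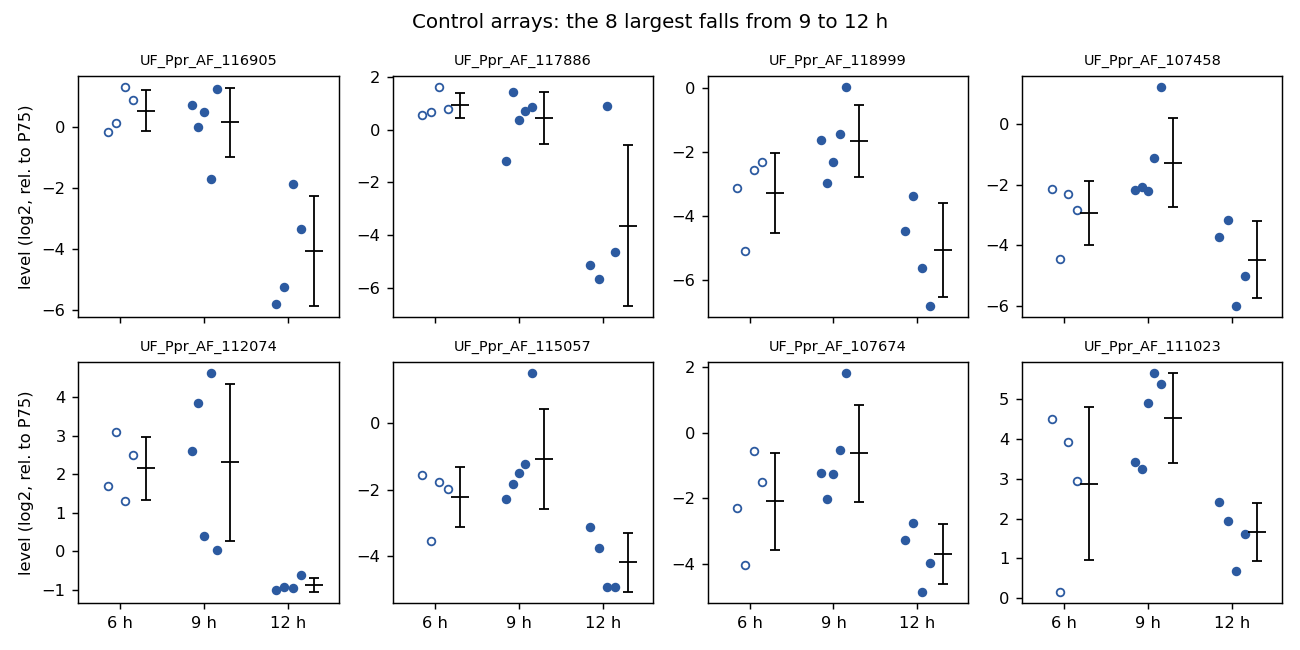
Levels (vertical axis, log2 relative to the array's 75th percentile) of the 8 largest falls, with open points for control arrays at 6 h and filled points at 9 and 12 h, and bars for the mean ± SD of each group. The SD at 12 h is 3.05 in UF_Ppr_AF_117886, where replicate 3 stays at 0.89, and 0.18 in UF_Ppr_AF_112074.

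Falls with the smallest p were about 2-fold, with less spread at 9 h than the largest falls. Their SD at 9 h was 0.29 to 0.47, where the median SD over probes was 0.45. UF_Ppr_AF_107730 was at 2.22, 2.03, 2.72, 2.21 and 2.58 at 9 h and at 0.85, 1.08, 1.15 and 1.66 at 12 h, a 2.24-fold fall (limma adjusted p = 4.62e-05). UF_Ppr_AF_114490 went from 4.57, 3.75, 4.65, 4.65 and 5.00 to 3.12, 3.41, 3.15 and 3.24, a 2.45-fold fall (limma adjusted p = 0.000334). Both were well above background on every control array, and their ranges did not overlap. UF_Ppr_AF_101334 and UF_Ppr_AF_117146, the other 2, are described below with the probes that had risen before.

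Some called probes were not measurable at one of the times. Of the higher calls, 23 were not well above background on any 9 h array, and of the lower calls, 31 were not on any 12 h array. The shares of all tested probes that were as dim are not given here, so these counts are description only. A probe was tested if it cleared background on at least 4 arrays, which the arrays of 1 group could supply alone. The changes of such dim probes have only a lower bound, taken against the higher of the probe's own signal and the lowest signal well above background on each dim array. This bound applies to the measured means under the main scaling. It leaves out the spread between arrays, so it is no confidence limit. UF_Ppr_AF_102815, well above background on all 4 arrays of 12 h at -4.90, -6.38, -6.10 and -6.23, was at least 2.64-fold higher than at 9 h (limma adjusted p = 0.0230). That call was lost under normexp, in the control arrays alone, without slide 5, and without 9 h replicate 3 or 12 h replicate 1 (adjusted p of up to 0.237). UF_Ppr_AF_113501 was at least 2.44-fold and UF_Ppr_AF_113636 at least 2.39-fold higher, with limma adjusted p of 0.000293 and 0.000406. In alternative fits the log2 change went as low as 0.48 in UF_Ppr_AF_102815, 0.62 in UF_Ppr_AF_113501 and 0.62 in UF_Ppr_AF_113636, which is under these bounds.

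In the other direction, UF_Ppr_AF_100471 was well above background on all 5 arrays of 9 h, at levels from -6.78 to -2.50 with a mean of -4.62, and on none of 12 h. By the bound it was at least 6.23-fold lower at 12 h (limma adjusted p = 0.00169). Its log2 change was -4.54 in the main fit and between -5.08 and -1.47 in the alternative fits, the smallest of them under that bound. Of the 4 control arrays of 6 h, 1 had it well above background. UF_Ppr_AF_103237 was at least 1.44-fold lower (limma adjusted p = 0.0404), but its measured ranges overlapped and the call was lost in 12 of 25 alternative fits, with an adjusted p of up to 0.171. These 2 were the only lower calls measured on every 9 h array and on no 12 h array.

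The same step was set beside the DHT arrays, which share no array with the controls. Per the labels their 12 h arrays lay on slides 5 and 7, so they share the 12 h slides of the controls and carry the same limit. Control and DHT arrays also resembled each other in 11 pairs within a time (r of 0.545 to 0.840 across probes, on deviations from the group means), so the arms are no independent repeats. In the DHT arrays limma called 2214 probes (16.1%) between 9 and 12 h, 1782 higher and 432 lower (3.15%), and 1076 without slide 5, which held 2 of the 4 DHT arrays of 12 h. Of the 1606 control probes called higher, 1599 had a higher mean in DHT and 1297 (80.8%) were called there. Of the 404 called lower, 393 had a lower mean in DHT and 226 (55.9%) were called. The share of all tested probes with a higher or a lower mean in DHT is not given here. In all, 1523 probes were called in both arms in one direction, 75.8% of the control calls and 68.8% of the DHT calls, and 0 in opposite directions.

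Some of the largest control changes were also called in the DHT arrays and some were not. UF_Ppr_AF_113084 rose by 4.27 with DHT and by 4.28 without. UF_Ppr_AF_117534 rose by 3.51 with DHT, UF_Ppr_AF_117035 by 2.27 and UF_Ppr_AF_107870 by 3.54 (limma adjusted p between 1.16e-09 and 7.40e-06 for the 4). UF_Ppr_AF_103802, at 2.90 with DHT, did not pass there (limma adjusted p = 0.0522). Of the falls, UF_Ppr_AF_116905 changed by -3.76 with DHT (limma adjusted p = 0.00504) and UF_Ppr_AF_107458 by -3.85 (0.00264). UF_Ppr_AF_117886, at -1.93 with DHT, and UF_Ppr_AF_112074, at -1.82, did not pass there (limma adjusted p of 0.355 and 0.146). With DHT, UF_Ppr_AF_117886 was at 0.94 and 2.03 in 12 h replicates 2 and 3 and at -5.72 and -4.99 in replicates 1 and 4, as uneven as in the controls.

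**Figure D4:**
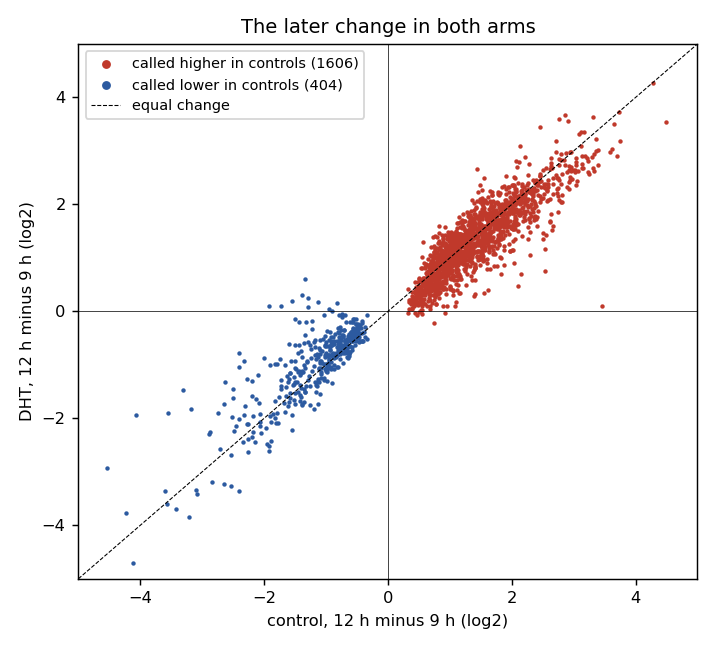
Log2 change from 9 to 12 h with DHT (vertical axis) against that in controls (horizontal axis) for the 2010 probes called in controls, with the dashed line for equal change. Of the 1606 red points (higher), 1599 lie above 0 on the vertical axis, and of the 404 blue points (lower), 393 lie below it.

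Whether the late change differed between the arms was tested directly. limma called 0 of 13714 probes for the change in controls minus the change with DHT, and 165 had an unadjusted p under 0.05, fewer than the 5% that chance gives. That fit treats the paired arrays of the arms as separate samples. With the inferred pairs as a random block, limma again called 0, but 1158 (8.44%) had an unadjusted p under 0.05 and the smallest adjusted p was 0.0916. The pairs were chosen from these same values for their likeness, a choice that can itself lower the p and narrow the intervals. The values with the block are therefore not those of known pairs. The 95% interval of the difference lay within 2-fold either way for 40.3% of tested probes without the block and 67.7% with it, and for 50.1% and 73.7% of those called in controls. For the rest a difference of that size cannot be set aside. UF_Ppr_AF_109091 had the smallest p. It was at -4.55, -4.46, -4.34, -4.63 and -4.34 at 9 h and at -3.01, -2.69, -2.67 and -3.04 at 12 h in controls, and at between -4.68 and -3.82, then between -4.12 and -3.80, with DHT. The control ranges were apart and the DHT ranges overlapped. Its change was 1.61 in controls and 0.40 with DHT, a difference of 1.21 (95% interval 0.51 to 1.90) that did not pass (limma adjusted p = 1.00). With the block it was 1.28 (95% interval 0.78 to 1.78) and did not pass either (limma adjusted p = 0.0916). UF_Ppr_AF_107029 came next and did not pass (limma adjusted p = 1.00, and 0.0916 with the block). Its signal cleared background on all 4 control arrays of 12 h, on 1 of 4 with DHT and on no 9 h array of either arm. By the bound described above, the rise in controls was at least 1.87-fold. Without the control arrays of 12 h the probe would have been too dim to be tested. Its p and its bound are therefore description only.

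The earlier step gives the set whose course was followed. Between 6 and 9 h limma called 176 control probes (1.28%), 65 higher (0.474%) and 111 lower (0.809%). Both steps use the same 5 arrays of 9 h, so a chance deviation of those arrays enters the earlier and the later change with opposite signs, and the counts that follow carry that link. Of the 65 probes that rose by 9 h, 30 (46.2%) were called lower from 9 to 12 h, 1 was called higher and 34 were not called. Of the 111 that fell, 60 (54.1%) were called higher, 0 lower, and 51 were not called. Over all tested probes 11.7% were called higher and 2.95% lower in the later step. So 90 probes turned back and 1 continued. The median changes of the 65 were 0.98 and then -0.64, and of the 111 they were -0.76 and then 0.57.

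The median level of the 65 went from -1.57 at 6 h to -0.65 at 9 h and -1.28 at 12 h. For the 111 it went from 1.56 to 0.74 and to 1.58. These are medians of levels over different probes. Taken probe by probe, the median difference of 12 h from 6 h was 0.40 for the 65 and -0.25 for the 111, on the side of the earlier change in both. The 6 h arrays enter the earlier change and this difference with the same sign, so their chance deviation favours that side. Among the 30 that rose and then fell, the later fall was between 62.1% and 138% of the earlier rise (median 84.0%). Among the 60 that fell and then rose, the later rise was between 49.6% and 326% of the earlier fall (median 118%), and in 39 of them the 12 h mean was above the 6 h mean. These percentages cover only probes called in both steps, so that small returns were left out beforehand. The direct comparison of 12 h with 6 h called 1372 control probes (10.0%), 1198 higher (8.74%) and 174 lower (1.27%). Most of the late calls had no call in the earlier step, namely 1545 of the 1606 higher and 374 of the 404 lower probes. Of all tested probes only 1.28% were called in the earlier step, so a missing earlier call was the rule for any probe.

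**Figure D5:**
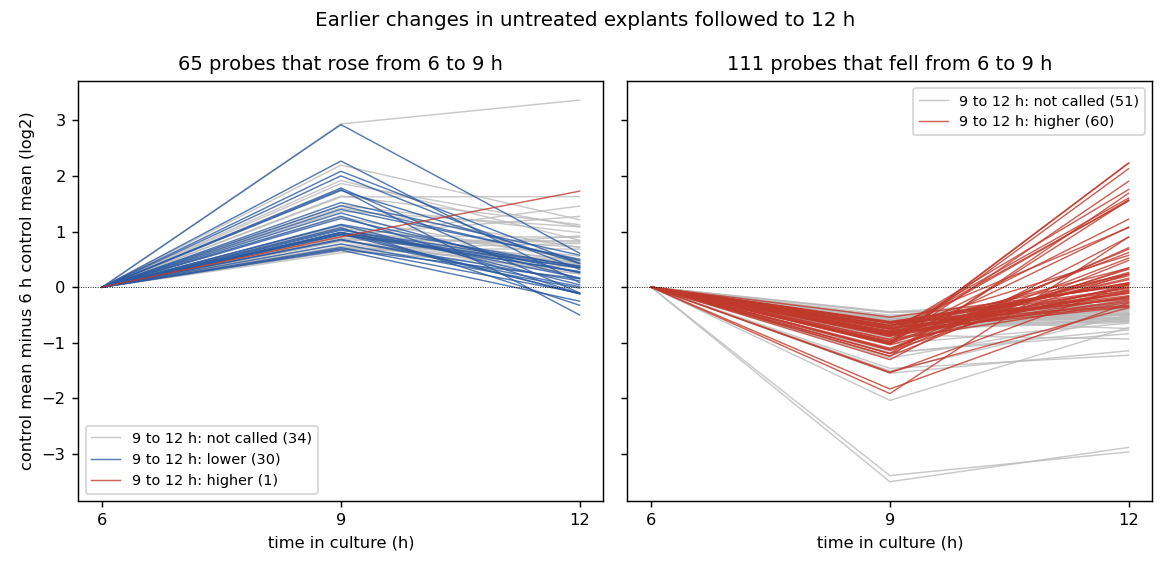
Control means relative to the 6 h mean (vertical axis, log2) against time in culture (horizontal axis, h) for the 65 probes that rose and the 111 that fell from 6 to 9 h. Red lines were called higher and blue lines lower from 9 to 12 h, and grey lines were not called; 30 of the risers are blue, 1 is red, and 60 of the fallers are red.

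A version in which the steps share no array takes the earlier step from the DHT arrays, where 109 probes were called (0.795%), 45 higher (0.328%) and 64 lower (0.467%), and the later one from the controls. Of the 45 that rose with DHT from 6 to 9 h, 21 (46.7%) were called lower in the controls from 9 to 12 h and 0 higher. Of the 64 that fell with DHT, 29 (45.3%) were called higher in the controls and 0 lower. The median changes were 1.05 with DHT and then -0.61 in controls for the 45, and -0.72 and then 0.48 for the 64. The pairing of control with DHT arrays at 9 h still links these steps. In the DHT arrays, the later step called 23 of the 65 control risers lower and 5 higher, and 50 of the 111 control fallers higher and 0 lower. Over all 13714 tested probes, that step with DHT called 1782 higher and 432 lower.

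The earlier calls rested on the fit to all 27 arrays. A fit to the 13 control arrays alone called 2 probes from 6 to 9 h, and a fit to the 9 arrays of that step called 1, which left 0 to turn back or continue in either. With the inferred pairs as a random block, 77 were called and 41 turned back. Single arrays weighed on both counts. The earlier calls went from 176 to 41, 46 or 93 without 9 h replicate 1, 3 or 5, and to 35, 31, 67 or 82 without 6 h replicate 1, 2, 3 or 4. Those that turned back went from 90 to 24, 25, 143 or 48 without 9 h replicate 1, 3, 4 or 5, to 20, 19, 42 or 41 without 6 h replicate 1, 2, 3 or 4, and to 59 without 12 h replicate 3.

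The single probe that was called higher in both steps was UF_Ppr_AF_118090. The 6 h arrays read -4.03, -4.05, -3.58 and -4.05, those of 9 h -3.43, -2.91, -2.86, -3.01 and -2.89, and those of 12 h -1.81, -2.47, -2.21 and -2.31. The 3 times formed 3 ranges that did not overlap. It rose by 0.90 (SE 0.17, limma adjusted p = 0.0107) and then by 0.82 (SE 0.17, limma adjusted p = 0.00113). With DHT the later step was 1.46, and the earlier one, at 0.43, did not pass (limma adjusted p = 0.186). The earlier call was lost in fits to the controls or to the compared arrays alone (adjusted p of up to 0.203), while the later one passed in all 26 alternative fits.

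Probes that rose and then fell are shown by 3 examples. UF_Ppr_AF_117146 stood at -1.18, -1.31, -1.04 and -1.12 at 6 h, at -0.45, -0.02, 0.39, -0.77 and -0.03 at 9 h, and at -1.49, -1.23, -1.29 and -1.12 at 12 h. All 9 h arrays were above all others, and the 12 h arrays lay around those of 6 h. Its changes were 0.99 (SE 0.19, limma adjusted p = 0.0140) and -1.11 (SE 0.19, limma adjusted p = 0.000197). UF_Ppr_AF_101334 went from a mean of -0.36 ± 0.24 (SD, n = 4) to 0.71 ± 0.47 (SD, n = 5) and to -0.68 ± 0.43 (SD, n = 4), with changes of 1.07 and -1.39. UF_Ppr_AF_112259 cleared background on 1 of 4 arrays of 6 h, 4 of 5 of 9 h and 0 of 4 of 12 h. By the bound described above, its fall from 9 to 12 h was at least 2.82-fold. The earlier rise lost its call in 3 of 26 alternative fits for UF_Ppr_AF_117146, in 8 of 26 for UF_Ppr_AF_101334 and in 14 of 25 for UF_Ppr_AF_112259.

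In the opposite class, the 3 probes with the smallest later p ended well above where they began. Choosing them by that p favours a large later rise, and in the whole class 39 of 60 had a 12 h mean above that of 6 h. UF_Ppr_AF_110762 was at 1.19, 1.02, 0.85 and 0.69 at 6 h, at -0.05, 0.24, -0.23, 0.12 and 0.16 at 9 h, and at 2.82, 2.29, 2.43 and 2.47 at 12 h. The 12 h arrays were above all others and the 9 h arrays below all others. The changes were -0.89 (SE 0.17, limma adjusted p = 0.0155) and 2.45 (SE 0.17, limma adjusted p = 7.41e-10). UF_Ppr_AF_102782 changed by -0.99 and then by 3.22, and UF_Ppr_AF_105162, described above, by -0.83 and then by 2.38. Compared directly with 6 h, these 3 were higher at 12 h by 1.56, 2.23 and 1.55 (limma adjusted p of 2.95e-06, 1.27e-06 and 7.52e-07). The earlier fall of UF_Ppr_AF_102782 lost its call in 10 of 26 alternative fits, that of UF_Ppr_AF_110762 in 5 and that of UF_Ppr_AF_105162 in 2.

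The earlier changes with the smallest p took different courses. UF_Ppr_AF_118138 was at -3.45, -3.52, -3.42 and -3.59 at 6 h, at -1.75, -2.55, -1.92, -2.10 and -2.35 at 9 h, and at -2.37, -2.39, -2.36 and -2.53 at 12 h. It rose by 1.36 by 9 h (limma adjusted p = 0.000463) and then differed by -0.28, which did not pass (limma adjusted p = 0.324), so that at 12 h it was still 1.08 above 6 h (limma adjusted p = 0.000309). UF_Ppr_AF_112667 rose by 1.64 (limma adjusted p = 0.00317) and then differed by -0.52, which did not pass (limma adjusted p = 0.171). Its 12 h arrays, from -1.83 to -1.44, all lay below those of 9 h, from -1.41 to -0.67. At 12 h it too was above 6 h, by 1.12 (limma adjusted p = 0.00514). UF_Ppr_AF_116027 instead returned. It went from -8.08, -7.00, -5.98 and -5.77 at 6 h to -3.56, -4.38, -3.81, -3.28 and -3.90 at 9 h and to -5.81, -6.38, -6.67 and -5.54 at 12 h. Its later change was -2.31 (SE 0.46, limma adjusted p = 0.000874), and 3 of the 4 arrays of 12 h lay within the range of 6 h, with replicate 4 just above it.

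All 3 of the earlier falls with the smallest p turned back. UF_Ppr_AF_100628, with a strong signal, was at 3.30, 3.31, 3.09 and 3.13 at 6 h, at 2.18, 2.45, 2.11, 2.08 and 2.04 at 9 h, and at 3.55, 3.06, 3.03 and 3.37 at 12 h. Its log2 level fell by 1.04 (SE 0.13, limma adjusted p = 0.000463), rose by 1.08 (SE 0.13, limma adjusted p = 2.76e-06), and at 12 h differed from 6 h by 0.05 (limma adjusted p = 0.888). UF_Ppr_AF_110662 had a mean of 2.94 ± 0.22 (SD, n = 4), then 2.08 ± 0.13 (SD, n = 5), then 2.86 ± 0.11 (SD, n = 4). It rose from 9 to 12 h by 0.78 (limma adjusted p = 0.000330). UF_Ppr_AF_115095 changed by -1.20 and then by 1.91 (limma adjusted p = 0.00411 and 1.25e-07), and at 12 h it was above 6 h by 0.71 (limma adjusted p = 0.0239). With DHT the later rises of the 3 were 1.16, 0.87 and 1.75 (limma adjusted p between 4.56e-07 and 8.64e-05), beside 1.08, 0.78 and 1.91 in controls.

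Probes for the same sequence name were compared. For 440 sequence names the array held a probe of the AF series and one of the AM series, letters whose meaning is not given in the sources used here. Of 45 such AF probes called from 9 to 12 h, the AM partner moved the same way in 28, was called the same way in 4 (8.89%) and the opposite way in 0. Of all 440 AM partners, 7.05% were called in either direction, a wider measure than a call in the same direction. The share of all partners that moved the same way is not given here. The AM probes were mostly dimmer, with a lower level than the AF partner in 342 of the 440 and a median of -6.02 against -1.53. Whether dimness accounts for the few shared calls was not tested, and the partners give the single AF calls little backing. Called probes were spread over the array's surface, at 13.5%, 14.5%, 16.0% and 14.7% of the tested probes in 4 equal blocks of its rows.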

How the data were processed

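Signals came from the authors' scanner files, made with Agilent Feature Extraction 10.7.1.1 per the file headers, in which the processed signal of a spot is an intensity on a linear scale, already background-subtracted and detrended. Flags of 0 or 1, other columns of the deposited files, mark spots well above background or non-uniform. The series table deposited by the authors has log2 values whose normalization is not given in the sources used here. Of 15744 spots, 536 were controls. Of 15208 probes, 169 were dropped for a flag (non-uniform or population outlier) on some array and 1333, in part the same, for clearing background on fewer than 4 arrays, which left 13714. limma 3.58.1 (R 4.3.3, with the package data.table at version 1.17.8) fitted a model of the 6 group means to the 27 arrays, tested at a Benjamini-Hochberg adjusted p under 0.05 over all tested probes of a contrast. The number of arrays limits the precision. Comparisons, lists and the rule for named probes were chosen with earlier results of these data known.

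The rule took the 8 largest changes and the 4 smallest p in each direction among calls well above background on all 9 arrays. It also took up to 3 bounded changes in each direction, the 3 smallest later p in each class called in both steps, the 3 smallest earlier p in each direction, and the 2 smallest p of the difference between arms. The planned gene lists and cell type markers were not run, since 0 probes were paired with genes among 64593 reference entries. Alternatives were normexp (offset 50, on the median signal) with quantile normalization, quantile normalization, centring on the median of bright probes, the deposited values, no or a stricter filter, slide or inferred pairs (mutual best partners, r over 0.5) as a random block, the control or the compared arrays alone, and leaving out each control array. Scan day as a random block, cyclic loess and leaving out slide 5 were added after the data were seen. Figures used Python 3.11.15, matplotlib 3.10.9, numpy 2.4.6 and pandas 2.3.3.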

Additional observations from a re-analysis of the deposited data

Results flagged for a closer look

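Of 120 groups of 4 or 5 control arrays looked at among the named probes, 10 held 1 array that stood apart from the others of its group, where chance gives about 1 in 20.

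At 12 h, UF_Ppr_AF_103802 was at 1.73 in replicate 2, with the others between 2.70 and 2.76. UF_Ppr_AF_117886 was at 0.89 in replicate 3, with the others between -5.65 and -4.65. UF_Ppr_AF_100471, not well above background on these arrays, was at -9.51 in replicate 3, with the others between -9.05 and -9.03. UF_Ppr_AF_118138 was at -2.53 in replicate 4, with the others between -2.39 and -2.36. At 9 h, UF_Ppr_AF_115057 was at 1.51 in replicate 5, with the others between -2.29 and -1.24. Replicate 1 of 9 h stood apart in UF_Ppr_AF_118090, at -3.43 against -3.01 to -2.86, and in UF_Ppr_AF_110662, at 1.85 against 2.13 to 2.15. At 6 h, UF_Ppr_AF_104556 was at -4.19 in replicate 3, against -4.45 to -4.43, and UF_Ppr_AF_118090 at -3.58 in replicate 3, against -4.05 to -4.03. UF_Ppr_AF_102815 was at -3.34 in replicate 4 of 6 h, with the others between -7.93 and -7.39.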

How the results depend on the processing

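No paired analysis was possible because the labels give no replicate numbers, that is, none on labelled pairs, and the pairs used as a random block were inferred from the data. The 2010 calls from 9 to 12 h ranged from 1439 to 2115 when 1 control array was left out, with 1407 without slide 5, and were 1255 in the compared arrays alone, 1813 with slide and 1502 with scan day as a random block. In each of the 27 settings that tested them, the main one included, 903 probes (44.9% of the calls) were called the same way, 839 higher and 64 lower. Calls from 9 to 12 h with DHT ranged from 2144 to 2279 with 1 control array left out and were 1076 without slide 5. Calls from 6 to 9 h were 2 in the control arrays alone, 1 in the compared arrays alone, 77 with inferred pairs and 328 with slide as a random block, and 31 to 252 with 1 array left out. Calls from 6 to 12 h were 870 with normexp, 848 with quantile normalization, 788 with the deposited values, 764 with cyclic loess, 843 in the compared arrays alone, 848 without slide 5, and 848 to 1473 with 1 array left out. Probes that turned back were 0 in the control arrays alone and in the compared arrays alone, 41 with inferred pairs, and 19 to 143 with 1 array left out. Those that continued were 0 in the control arrays alone and in the compared arrays alone, and 1 to 2 with 1 array left out. Fits to fewer arrays have fewer degrees of freedom behind the spread, and the cause of the other shifts was not tested. The difference between the arms had 0 calls in each of its 26 fits. Of the 51 called changes of named probes, 0 reversed, and a call was lost in 102 of the 1315 alternative values. The control arrays alone give no value for DHT.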
